A study of Mus musculus with 11 samples.

Results

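Fibronectin and 9 other proteins of the extracellular matrix, most of them glycoproteins, were followed as a group of 10 genes. These were Fn1, Tnc, Postn, Sparc, Thbs1, Thbs2, Spp1, Fbln1, Fbn1 and Eln, listed by name. All 10 were found by symbol among the 28284 genes of the count table, and all 10 passed the filter on low counts, which left 17317 genes. The table holds the RNA of 11 OvTrpMyc lines, cells grown out of 7 mice and sequenced in bulk with 1 library each: 7 ovary lines, 2 uterus lines, a line from a splenic tumor and a line from a peritoneal tumor. Every line carries the genotype Ovgp1-Trp53-R270H-Myc, in which the Ovgp1 promoter, active in the secretory cells of the fallopian tube, drives mutant p53-R270H and Myc from 1 Trp53 allele on a C57BL/6 background, and no line without the transgene was included. F361 peritoneal tumor is described in the methods as no longer expressing the mutant p53, and genotyping as showing loss of the wild-type allele in the lines, neither of which was analysed here. The lines were named by mouse and organ, with LOV for the left and ROV for the right ovary (removed along with its fallopian tube), and were grown out of minced tissue in RPMI medium with serum and left untreated. The ages of the mice at dissection are not given in the sources used here, and nothing in these sources says that a line is a single clone.

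Matricellular proteins are secreted into the extracellular matrix but do not themselves build its framework, and they change how cells adhere, migrate and receive growth factors. Fibronectin is a dimer that cells stretch into fibrils through integrin receptors, and collagens, fibrillins and thrombospondins assemble upon it. Tenascin C, periostin, SPARC, the thrombospondins and osteopontin are made during development, wound repair and in the stroma of tumors, whereas fibulin 1, fibrillin 1 and elastin belong to the microfibrils and elastic fibers that give tissue its recoil. In ovarian carcinoma, fibronectin and periostin are best known as products of fibroblasts and mesothelial cells, and as substrates on which tumor cells spread over the peritoneum.

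The libraries held 13580525 to 27044598 counts, and 3 counts corresponded to 0.111 to 0.221 CPM (counts per 1000000 counts of the library). The labels number the libraries 1 to 11, and libraries 1 to 7 (5 ovary lines and both tumor lines) stood apart from libraries 8 to 11 (both uterus lines, F318 LOV and F339 ROV). Genes of the skeletal muscle fiber took 8.09% to 15.6% of the counts in libraries 1 to 7, with F318 ROV the lowest, against 0.166% to 1.33% in libraries 8 to 11, and 34 of the 37 muscle genes tested were lower in every one of libraries 8 to 11, as were 16.3% of all genes tested. In the same direction and without overlap moved 4 of 5 endothelial genes (summed level 80.4 to 317 against 2.44 to 73.1 CPM) and 4 of 6 macrophage genes (40.6 to 100.1 against 8.38 to 18.3 CPM). Genes that define a carcinoma of the tube or ovary were mostly low. The 8 epithelial genes summed to between 3.42 and 156 CPM, with Epcam at 2.12 CPM or less in every line, and Pax8 reached at most 3.04 CPM. Ovgp1, whose promoter drives the transgene, lay at 0.829 to 6.52 CPM. F319 ROV had the highest values of Msln (130 CPM), Wt1 (72.7 CPM), Krt18 (67.9 CPM) and Krt8 (52.7 CPM), F333 uterus that of Krt7 (40.5 CPM), and the 5 oviduct and serous carcinoma genes summed to between 1.69 and 215 CPM. The 9 fibroblast genes summed to 350 to 11561 CPM in libraries 1 to 7 but 11101 to 20019 CPM in libraries 8 to 11, where Col1a1 and Col3a1 were higher in every line, and Dcn and Lum lower, than in any of libraries 1 to 7. Among smooth muscle genes 2 of 6 (Acta2 and Cnn1) were higher and 2 (Des and Myh11) lower without overlap, and 2 of the 3 osteoblast genes tested, Runx2 and Sp7, were higher, counts to be read against 24.4% of all genes higher and 16.3% lower. In bulk RNA, fewer cells of a type and less RNA per cell cannot be told apart. What part these other cell types had in the levels below was not tested, so each comparison is also given within the library numbers.

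The 10 matrix genes together took between 0.0813% of the counts, in F361 peritoneal tumor, and 2.73%, in F339 ROV. Their share was 1.70% to 2.73% in libraries 8 to 11 and 0.0813% to 0.991% in libraries 1 to 7, where F318 ROV was the highest. Counts grow with transcript length, and Fn1, one of the longest, alone supplied 11.9% to 50.5% of the 10 genes' counts, and it was the gene with the most counts of all 28284 in F339 ROV and in F318 LOV. Of the 10 genes, 5 (Fn1, Postn, Sparc, Thbs1 and Thbs2) were higher in each of libraries 8 to 11 than in any of libraries 1 to 7, a pattern shown by 24.4% of all genes tested. Eln alone was lower in each of them, as were 16.3% of all genes, and Tnc, Spp1, Fbln1 and Fbn1 overlapped. The median difference between the mean levels of both sets of libraries, on the scale of log2(CPM + 1), was 3.16 for the 10 genes and 0.24 for all genes tested, of which the middle 90% lay between -2.40 and 2.25. These are descriptions with no test, because the libraries were divided by number after their values had been seen.

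The split over all genes depended on the scaling. With TMM factors, which align the bulk of the genes, 18.2% of all genes were higher and 20.8% lower, the median of all genes moved to -0.01 and that of the 10 genes to 2.81, and Thbs2 joined the genes that overlap. Without the muscle genes in the totals the 10 genes' median was 2.97. With F318 ROV left out of libraries 1 to 7, a choice made after seeing the data, 7 of the 10 genes were higher without overlap, Tnc and Fbn1 being the additions, against 28.6% of all genes. The sign of the difference was the same for each of the 10 genes under every one of these settings.

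**Figure D1:**
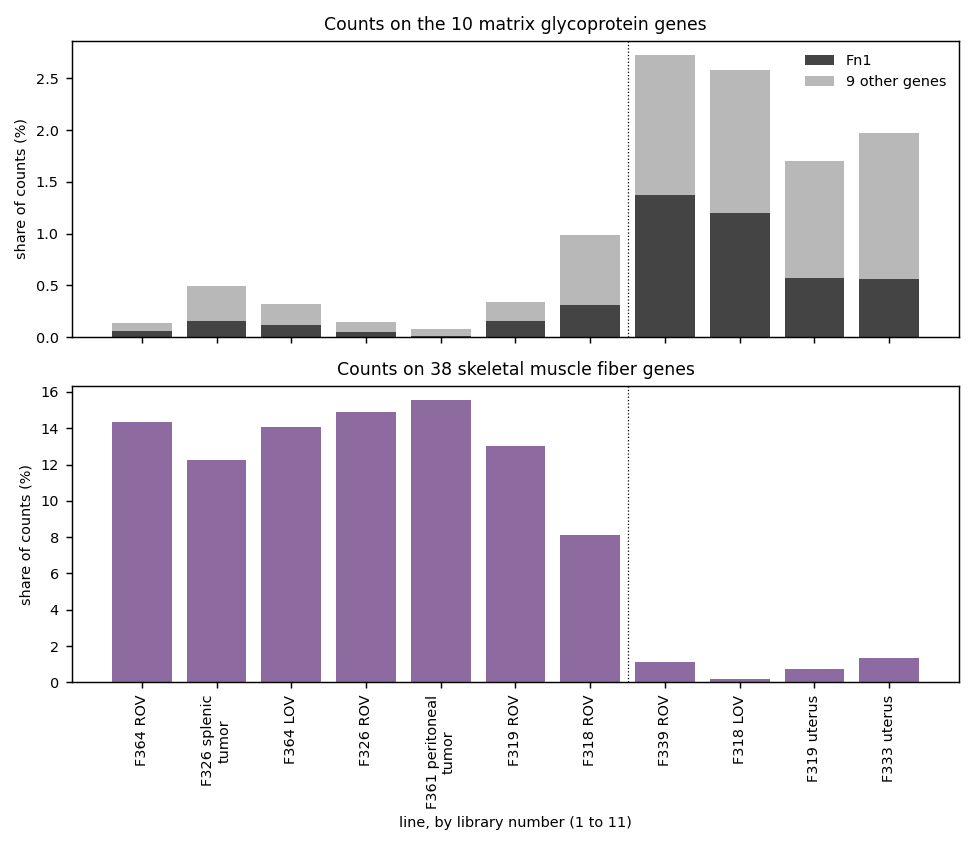
Share of each library's counts, in percent, on the 10 matrix genes (upper bars, with Fn1 in dark grey) and on 38 skeletal muscle fiber genes (lower bars). Lines are ordered by library number, with a dotted line between libraries 7 and 8. The matrix genes took 1.70% to 2.73% right of the dotted line and at most 0.991% left of it, while the muscle genes took 8.09% or more left of it and at most 1.33% right of it.

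Fibronectin, encoded by Fn1 (chr1:71585520-71653200, minus strand, GRCm38) was measured in every line. Among libraries 1 to 7 it lay at 643 CPM in F364 ROV, 1603 CPM in F326 splenic tumor, 1137 CPM in F364 LOV, 464 CPM in F326 ROV, 96.5 CPM in F361 peritoneal tumor, 1603 CPM in F319 ROV and 3096 CPM in F318 ROV. Among libraries 8 to 11 it lay at 13779 CPM in F339 ROV, 12031 CPM in F318 LOV, 5753 CPM in F319 uterus and 5584 CPM in F333 uterus. The tumor lines were thus not alike, one of them being the lowest of all lines, and both uterus lines were below both ovary lines that share their library numbers. The ratio of the medians of libraries 8 to 11 and 1 to 7 was 7.82. By organ, Fn1 averaged 4679 ± 5707 CPM (SD, n = 7) in ovary, 5668 ± 120 CPM (SD, n = 2) in uterus and 850 ± 1065 CPM (SD, n = 2) in tumor lines. The spread within ovary and within tumor lines was thus larger than their means. The ovary lines are not all from separate mice, since F364 and F318 each gave a left and a right line. By counts Fn1 ranked 1, 1, 2 and 4 among all genes in libraries 8 to 11, with no correction for length, and its rank in libraries 1 to 7 ran from 18 (F318 ROV) to 1771 (F361 peritoneal tumor).

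Tenascin C (Tnc, chr4:63959785-64047015, minus strand) is a large hexameric protein that weakens the adhesion of cells to fibronectin. Its level separated libraries 1 to 7 into lines at 5.71 CPM (F364 ROV), 6.33 CPM (F361 peritoneal tumor), 6.48 CPM (F326 ROV) and 14.8 CPM (F364 LOV), and lines at 153 CPM (F326 splenic tumor), 193 CPM (F319 ROV) and 286 CPM (F318 ROV). It reached 746 CPM in F339 ROV, 337 CPM in F318 LOV, 240 CPM in F319 uterus and 688 CPM in F333 uterus. F318 ROV exceeded F319 uterus, so both sets of libraries overlapped, although their medians differed 34.6-fold.

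Periostin (Postn, chr3:54361109-54391037, plus strand) binds fibronectin, tenascin C and collagen and is typical of fibroblasts and bone-lining cells. It varied more than any other of the 10 genes among libraries 1 to 7, from 2.16 CPM in F364 ROV, 6.36 CPM in F319 ROV and 8.15 CPM in F326 ROV over 18.4 CPM in F361 peritoneal tumor to 202 CPM in F364 LOV, 367 CPM in F326 splenic tumor and 657 CPM in F318 ROV, a 305-fold range. In libraries 8 to 11 the values were 1563 CPM in F339 ROV, 2419 CPM in F318 LOV, 972 CPM in F319 uterus and 1292 CPM in F333 uterus. The range there was 2.49-fold, and the ratio of the medians of libraries 8 to 11 and 1 to 7 was 77.5, the largest of the 10 genes.

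Promoters, here the 250 bases before to 50 bases after a start site in RefSeq on GRCm38.p6, were matched for 7 of the 10 genes (Tnc, Postn, Sparc, Thbs2, Spp1, Fbln1 and Fbn1). Those of Postn and Thbs2 are shown because these genes were higher in libraries 8 to 11 without overlap, and those of Spp1 and Fbln1 because these genes departed from that pattern. Capitals mark matches, on either strand, to TATAAA (the TATA box), CAGACA (a SMAD site, read TGTCTG on the other strand) or CACGTG (a MYC E-box). Sparc and Fbn1 are not shown, since their RefSeq start sites lay 3103 and 1555 bases from the gene start of the annotation used for the positions here. Tnc, which also departed from the pattern by overlapping, is not shown either.
Postn (chr3:54360857-54361156, plus strand): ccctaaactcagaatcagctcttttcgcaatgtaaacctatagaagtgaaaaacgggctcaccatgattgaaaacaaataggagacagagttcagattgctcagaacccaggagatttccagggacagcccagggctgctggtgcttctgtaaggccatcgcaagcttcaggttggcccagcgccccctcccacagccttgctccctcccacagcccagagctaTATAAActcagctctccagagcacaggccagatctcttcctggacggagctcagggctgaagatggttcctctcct
Thbs2 (chr17:14694213-14694512, minus strand): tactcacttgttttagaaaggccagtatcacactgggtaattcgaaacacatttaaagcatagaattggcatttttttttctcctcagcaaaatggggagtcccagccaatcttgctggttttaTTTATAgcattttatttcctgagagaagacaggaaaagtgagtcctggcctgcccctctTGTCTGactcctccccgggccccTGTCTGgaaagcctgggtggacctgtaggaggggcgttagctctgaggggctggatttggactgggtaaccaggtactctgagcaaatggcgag
Spp1 (chr5:104434861-104435160, plus strand): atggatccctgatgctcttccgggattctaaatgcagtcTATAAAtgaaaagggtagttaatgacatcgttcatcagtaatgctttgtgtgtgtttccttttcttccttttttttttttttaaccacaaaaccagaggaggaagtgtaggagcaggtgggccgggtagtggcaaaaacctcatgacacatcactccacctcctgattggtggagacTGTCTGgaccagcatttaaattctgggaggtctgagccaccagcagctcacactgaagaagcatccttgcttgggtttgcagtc
Fbln1 (chr15:85205699-85205998, plus strand): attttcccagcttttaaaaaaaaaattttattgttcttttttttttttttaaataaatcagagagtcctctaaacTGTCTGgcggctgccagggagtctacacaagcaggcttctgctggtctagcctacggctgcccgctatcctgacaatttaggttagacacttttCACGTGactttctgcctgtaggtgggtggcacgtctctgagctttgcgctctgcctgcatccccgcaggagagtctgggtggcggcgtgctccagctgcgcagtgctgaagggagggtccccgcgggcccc
The TATA box of Postn began 26 bases before the start site, whereas the matches in Thbs2 and Spp1 began 126 and 211 bases before it. TATAAA occurred in 13.6%, CAGACA in 21.0% and CACGTG in 7.15% of all 32851 promoters of the same length. Thbs2 held CAGACA at 67 and 44 bases, Spp1 at 34 bases and Fbln1 at 175 bases before the start site, and Fbln1 held CACGTG at 81 bases before it. Of the genes not shown, Tnc held both TATAAA and CAGACA, and Sparc held CAGACA. Neither TGANTCA (an AP-1 site, in 7.81% of all promoters), GGAATG (a TEAD site, in 14.7%) nor the CArG box (in 1.63%) was matched in any of the 11 promoters of these genes, and GGGCGG (an Sp1 site, in 35.7%) was matched in those of Tnc, Fbln1 and Fbn1.

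SPARC, or osteonectin (Sparc, chr11:55394500-55423183, minus strand), binds collagen and calcium and takes part in the assembly of collagen fibrils. It lay at 466 to 1497 CPM in libraries 1 to 7 with a median of 873 CPM, and in libraries 8 to 11 at 3134 CPM in F339 ROV, 3600 CPM in F318 LOV, 2999 CPM in F319 uterus and 4185 CPM in F333 uterus. Every line of the second set was above every line of the first, and the range was 3.21-fold within the first (Eln, at 3.18-fold, was as narrow there) and 1.40-fold within the second.

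The thrombospondins bind CD36, CD47 and integrins, and thrombospondin 1 is a known inhibitor of vessel growth and activator of latent TGF-beta. Thbs1 (chr2:118111876-118127133, plus strand) lay at 135 CPM in F364 ROV, 1173 CPM in F326 splenic tumor, 566 CPM in F364 LOV, 11.02 CPM in F326 ROV, 62.4 CPM in F361 peritoneal tumor, 364.2 CPM in F319 ROV and 2984 CPM in F318 ROV, a 271-fold range. The 4 other lines were close together, at 5893 CPM in F339 ROV, 3763 CPM in F318 LOV, 4395 CPM in F319 uterus and 5980 CPM in F333 uterus. Thbs2 (chr17:14665500-14694235, minus strand), whose promoter is shown above, lay at 9.18 CPM in F319 ROV, 10.5 CPM in F364 ROV, 18.0 CPM in F326 ROV, 87.6 CPM in F361 peritoneal tumor, 108 CPM in F364 LOV, 260 CPM in F326 splenic tumor and 576 CPM in F318 ROV. It reached 620 CPM in F339 ROV, 2576 CPM in F318 LOV, 2223 CPM in F319 uterus and 1472 CPM in F333 uterus. F318 ROV and F339 ROV nearly met, and they crossed under TMM scaling. F319 ROV, the lowest line for Thbs2, was in the middle of libraries 1 to 7 for Thbs1.

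Osteopontin (Spp1, chr5:104435118-104441050, plus strand) is a phosphoprotein that binds integrins and CD44 and is made by osteoblasts, macrophages and many carcinomas. Its pattern was unlike that of the genes above. It was high in F364 LOV (341 CPM), F339 ROV (306 CPM), F318 LOV (293 CPM) and F318 ROV (255 CPM), lower in F319 uterus (92.0 CPM) and F364 ROV (63.9 CPM), and lowest in F319 ROV (22.7 CPM), F333 uterus (13.4 CPM), F326 splenic tumor (10.3 CPM), F361 peritoneal tumor (9.13 CPM) and F326 ROV (7.08 CPM). High and low lines were found on both sides of the library numbers, and both lines of mouse F318 were high while both lines of mouse F326 were low.

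Fibulin 1 (Fbln1, chr15:85205949-85286535, plus strand) binds fibronectin and lies within elastic fibers. Between 12.6 and 13.8 CPM were measured in F364 LOV, F364 ROV, F326 ROV and F361 peritoneal tumor, followed by 31.2 CPM in F326 splenic tumor, 35.7 CPM in F319 ROV and 78.8 CPM in F318 ROV. Both ovary lines of libraries 8 to 11 were the highest of all, with 133 CPM in F339 ROV and 271 CPM in F318 LOV, whereas F319 uterus had 28.8 CPM and F333 uterus 1.81 CPM (95% Wilson interval 1.32 to 2.47), the lowest of the 11 lines. Fbln1 thus had a 150-fold range among libraries 8 to 11, the widest there.

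Fibrillin 1 (Fbn1, chr2:125300594-125507993, minus strand), the main protein of microfibrils, lay at 19.0 to 453 CPM in libraries 1 to 7, with a median of 48.9 CPM and F318 ROV far above the other lines, the next being F326 splenic tumor at 131 CPM. It reached 1072 CPM in F339 ROV, 489 CPM in F318 LOV, 302 CPM in F319 uterus and 471 CPM in F333 uterus. The line F318 ROV was therefore above F319 uterus and the sets overlapped.

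Elastin (Eln, chr5:134702593-134747323, minus strand), which is laid down on microfibrils, was the only one of the 10 genes that was lower in every one of libraries 8 to 11 than in any of libraries 1 to 7. It had 13.5 CPM in F339 ROV, 1.004 CPM in F318 LOV, 0.222 CPM (6 counts, 95% Wilson interval 0.102 to 0.484) in F319 uterus and 1.86 CPM in F333 uterus, against 15.4 to 49.1 CPM in libraries 1 to 7. F339 ROV was close to the lowest of libraries 1 to 7, F326 splenic tumor at 15.4 CPM, and the 2 values crossed when levels were computed per exon length. Fn1, Tnc, Thbs1, Spp1, Fbn1 and Eln each overlap another annotated gene, and the strand setting of the counting is not given in the sources used here, so reads in the shared stretches cannot be assigned.

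**Figure D2:**
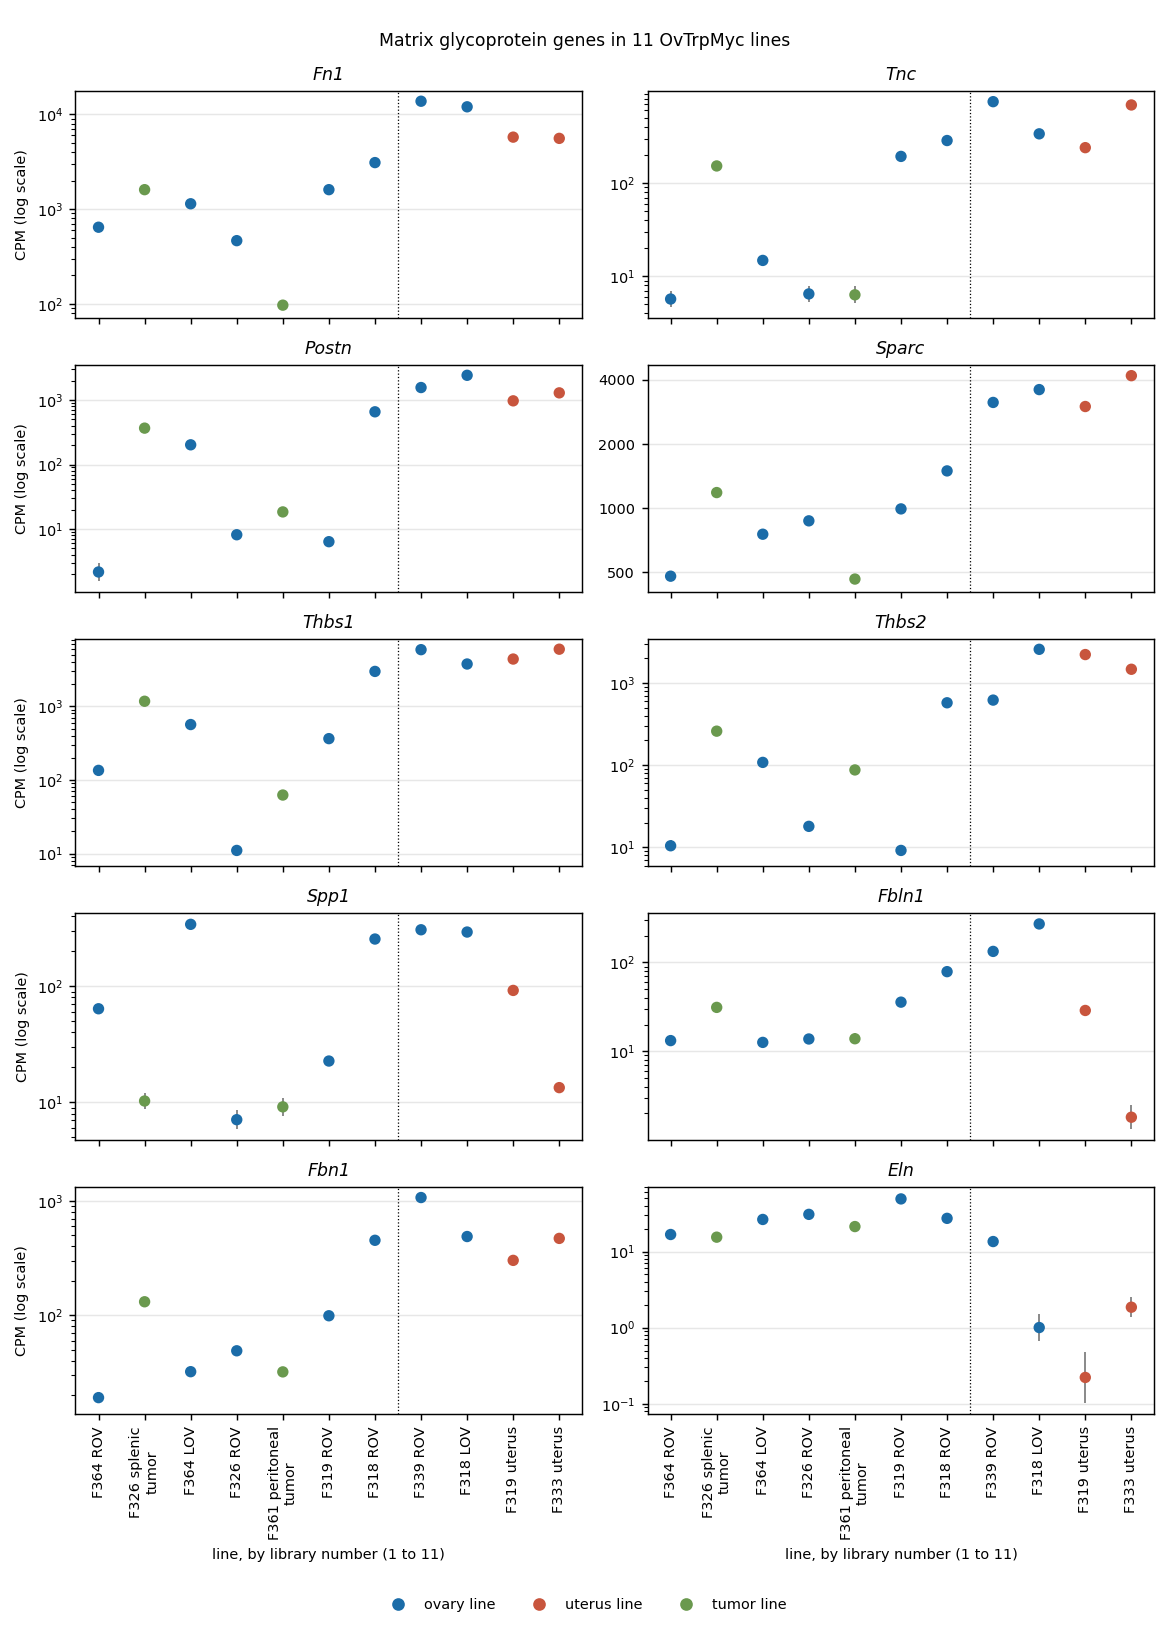
Level of each of the 10 matrix genes (CPM, log scale) in the 11 lines ordered by library number, with ovary, uterus and tumor lines in separate colors. Grey bars show the 95% Wilson interval of counting error, and a dotted line lies between libraries 7 and 8. Fn1, Postn, Sparc, Thbs1 and Thbs2 are higher in all 4 lines right of the dotted line, Eln is lower there, and Spp1 and Fbln1 spread over the whole range there.

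Beyond the library numbers, the lines differed from each other in these genes more than in most others. The SD of log2(CPM + 1) between lines, taken within libraries 1 to 7 and within libraries 8 to 11 and pooled, had a median of 1.90 over the 10 genes and 0.42 over all genes tested, whose 95th percentile was 1.17. All 10 genes were above the median of all genes, and 8 were above the 95th percentile, with Eln and Sparc as the exceptions at the percentiles 91.9 and 66.2. The genes tested were not matched to the 10 for level, and adding 1 to the CPM narrows the spread of genes near or below 1 CPM. F318 ROV was the highest of libraries 1 to 7 for 8 of the 10 genes, the exceptions being Spp1 (F364 LOV) and Eln (F319 ROV), and it was also the line with the smallest share of muscle counts among them. The lowest line changed from gene to gene, F364 ROV being the lowest of libraries 1 to 7 for 3 genes and F361 peritoneal tumor and F326 ROV for 2 each.

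The levels of the 10 genes were compared with each other per length, as counts per kilobase of all exons of a gene, scaled to a sum of 1000000 over the 27092 genes with a length. On this scale the medians over the 11 lines placed Sparc first (821), followed by Thbs1 (507), Fn1 (409), Spp1 (112), Postn (111), Thbs2 (97.3), Tnc (74.1), Fbn1 (28.4), Fbln1 (18.7) and Eln (5.99). The order was not the same in both sets of libraries. Postn was last of the 10 by its median in libraries 1 to 7 (5.52) but ranked 5 in libraries 8 to 11 (548), and Eln ranked 7 in libraries 1 to 7 and 10 in libraries 8 to 11 (0.578). Sparc was the highest of the 10 genes in 7 lines, Fn1 in F339 ROV and F318 LOV, Thbs1 in F318 ROV and Spp1 in F364 LOV. With the longest transcript as the length, Sparc was the highest in 10 lines. Neighbors in this order were mostly not apart. The log2 difference of Fn1 and Spp1 averaged 2.33 with an SD of 1.98 over the 11 lines, and for the other neighboring pairs the mean difference was smaller than its SD, as for Sparc and Thbs1 (1.55, SD 2.11) or Tnc and Fbn1 (-0.03, SD 1.04).

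**Figure D3:**
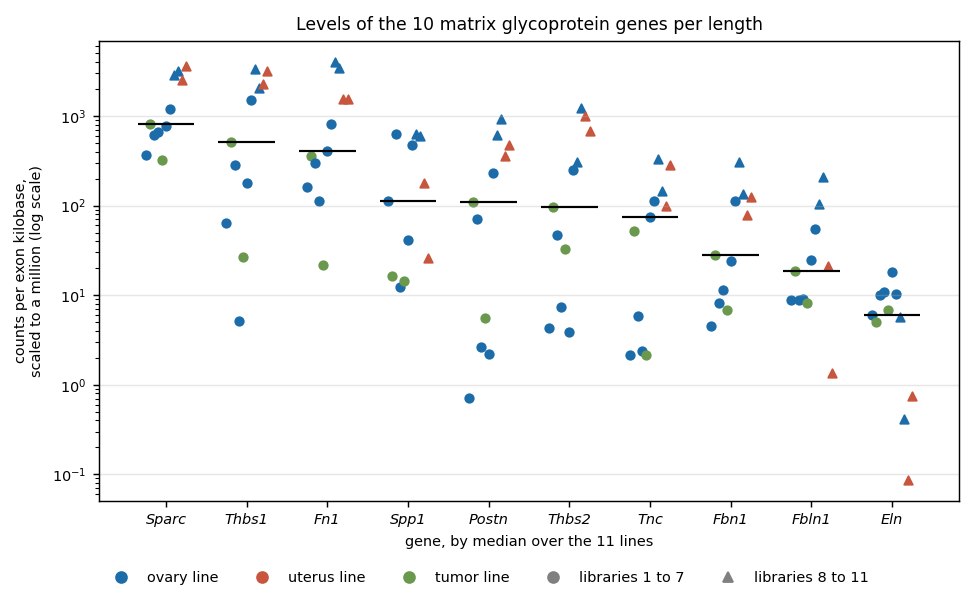
Levels per length of the 10 genes (counts per exon kilobase scaled to a sum of 1000000, log scale), ordered by the median over the 11 lines (black bar), with circles for libraries 1 to 7, triangles for libraries 8 to 11 and colors for the organ. Sparc has the highest median (821), and Eln has the lowest median (5.99), with its triangles below its circles except in F339 ROV.

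Whether lines from the uterus differed from ovary lines was examined by the quasi-likelihood test of edgeR over all 17317 genes, with the library number (1 to 7 or 8 to 11) and the organ as terms and a Benjamini-Hochberg adjusted p under 0.05. None of the 10 matrix genes passed. Over all genes, 1 passed (0.00577%), Hoxc11, which was higher in the uterus lines by 5.92 on the log2 scale (adjusted p = 0.0374), and 865 genes had an unadjusted p under 0.05. With DESeq2, 1 matrix gene passed, Fbln1, as did 125 of all genes (0.722%). Since both uterus lines are among libraries 8 to 11, they were set against F339 ROV and F318 LOV, and for Fn1, Postn, Spp1, Fbln1 and Fbn1 both uterus lines were below both of these ovary lines, as they were for 13.8% of all genes. For the 5 other matrix genes the values overlapped, and for none were both uterus lines above, as they were for 12.1% of all genes. The fitted log2 fold change of Fn1 was -1.11 ± 1.06 (SE, edgeR adjusted p = 1). Spp1 had 13.4 and 92.0 CPM in the uterus lines against 293 and 306 CPM, with a fold change of -2.51 ± 1.49 on the log2 scale (edgeR adjusted p = 1). Fbln1 had the largest difference, -3.75 ± 1.198, with an unadjusted p of 0.0105 and an adjusted p of 0.872 in edgeR, while DESeq2 gave -3.78 and an adjusted p of 0.0413. Over all alternatives its adjusted p ranged from 0.0413 to 1. Eln was at -2.66 ± 1.12 (edgeR adjusted p = 0.981), but with F339 ROV left out the fold change was 0.16, so 1 ovary line set its direction in this fit. The remaining 6 genes had fold changes of -0.91 to 0.25 on the log2 scale, with standard errors of 0.53 to 2.11. With the mouse added as a term, a fit made after seeing the data that rests on the pairs of F319 and F318 for the organ and leaves 1 residual degree of freedom, none of the 10 passed (0.144% of all genes did), but the fold changes of Postn, Spp1 and Fbn1 turned to 5.22, 1.67 and 1.35, and those of Thbs2 and Thbs1 moved to 5.61 and 3.11.

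The tumor lines were both among libraries 1 to 7, and for every one of the 10 genes their range overlapped or enclosed values of the 5 ovary lines there. In the same edgeR fit, none of the 10 passed, while 9 of all 17317 genes (0.052%) did, all lower in the tumor lines, and 1683 had an unadjusted p under 0.05. Spp1 differed most, with 10.3 CPM in F326 splenic tumor and 9.13 CPM in F361 peritoneal tumor against 7.08 to 341 CPM in the ovary lines of libraries 1 to 7, and a fold change of -3.71 ± 1.48 on the log2 scale (SE, edgeR adjusted p = 0.467). DESeq2 passed this gene alone of the 10, with an adjusted p of 0.0286, and passed 440 of all genes (2.54%). The adjusted p of Spp1 over the alternatives ranged from there to 0.792. For the 9 other genes the fold change lay between -0.55 and 0.52. With the mouse added as a term, which leaves the pair of F326 alone to set the tumor effect and 1 residual degree of freedom, Thbs1 (6.79 ± 1.05 on the log2 scale) and Tnc (4.62 ± 0.72) were higher in the tumor line and passed, each with an edgeR adjusted p of 0.0467, as 0.762% of all genes passed. The same fit turned the fold changes of Fn1, Fbn1, Fbln1 and Spp1 from below to above 0, at 1.85, 1.48, 1.24 and 0.59, and moved Postn to 5.55 and Thbs2 to 3.91, none of which passed, while Sparc was at 0.50 and Eln at -0.94. The tumor lines differed from each other 16.6-fold in Fn1, 18.8-fold in Thbs1 and 24.1-fold in Tnc, with F326 splenic tumor the higher each time. In the edgeR fit without the mouse term, lines from 4 mice entered in pairs as if independent, and its p-values measure only the spread between these lines. With the mouse term, the residual degree of freedom came from the pair of F364 ovary lines. The p-values of that fit therefore rest on this pair and on spread shared across genes, and measure no spread between tumor lines.

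A pair of lines came from each of 4 mice. The median difference of the 10 genes within a pair, in log2(CPM + 1) and regardless of sign, was 1.52 in F318, 1.91 in F319, 1.60 in F326 and 1.03 in F364. Over all genes tested, which were not matched for level, it was 0.68, 0.86, 0.50 and 0.29. Both lines of F326 and both of F364 were among libraries 1 to 7. In mouse F326, F326 splenic tumor exceeded F326 ROV 106-fold in Thbs1, 45.0-fold in Postn, 23.6-fold in Tnc and 14.4-fold in Thbs2, while Sparc differed 1.36-fold. In mouse F364, the left ovary line exceeded the right 93.8-fold in Postn, 10.3-fold in Thbs2, 5.34-fold in Spp1 and 4.196-fold in Thbs1, and Fbln1 was at a ratio of 0.955. The pairs of F318 and F319 join a line of libraries 1 to 7 and a line of libraries 8 to 11. F318 LOV exceeded F318 ROV 4.48-fold in Thbs2, 3.89-fold in Fn1 and 3.68-fold in Postn, with Tnc, Thbs1, Spp1 and Fbn1 at most 1.26-fold higher, and Eln was 27.2-fold lower. F319 uterus exceeded F319 ROV 242-fold in Thbs2 and 153-fold in Postn, whereas Tnc differed 1.24-fold and Fbln1 was at a ratio of 0.806, and Eln was 221-fold lower. With 1 library per line these ratios have no replicate check.

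**Figure D4:**
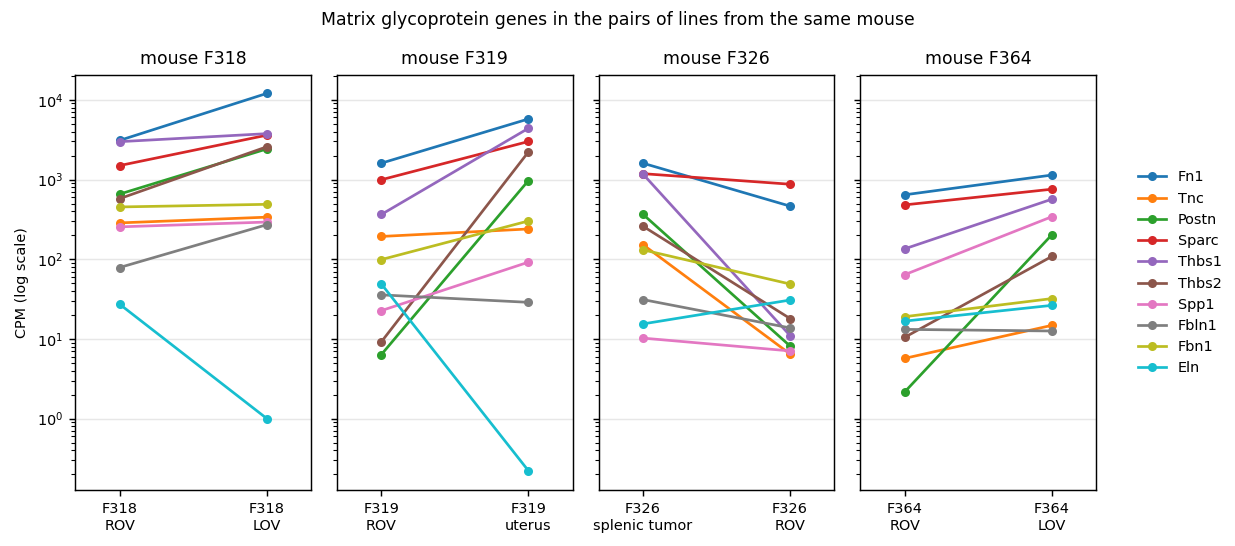
Level of the 10 genes (CPM, log scale) in the pairs of lines from mice F318, F319, F326 and F364, with 1 colored line per gene joining the values of a pair. In F326 the splenic tumor line is higher for 9 genes, by 106-fold for Thbs1, and in F318 and F319 Eln is lower and most other genes are higher in the line of libraries 8 to 11.

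Receptors and partners of these proteins were taken from lists. Of 12 receptor genes, 6 (Itga5, Itgav, Itgb1, Itgb3, Cd44 and Cd47) were higher without overlap in libraries 8 to 11 and 1 was lower (Cd36), against 24.4% and 16.3% of all genes, and the median difference was 1.76 on the log2 scale. Itgb1, the integrin subunit shared by most fibronectin receptors, had a median of 500.2 CPM, the highest of the list without correction for length, and lay at 179 to 681 CPM in the first set of libraries and at 1008 to 2556 CPM in the second. Cd36, the thrombospondin receptor of endothelium, fat and muscle, had the largest difference, from 221 to 511 CPM down to 3.49 to 35.7 CPM. Itga8 had the lowest median, 1.90 CPM.

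Among 15 genes of elastic fiber assembly, 5 (Emilin2, Ltbp1, Lox, Loxl3 and Loxl4) were higher without overlap and none lower, beside 24.4% and 16.3% of all genes, with a median difference of 2.32 on the log2 scale. Lox, the enzyme that crosslinks elastin and collagen, had the highest median CPM (not corrected for length) and was at 788 to 2263 CPM in libraries 8 to 11 against 11.3 to 631 CPM, the reverse of Eln. Ltbp2 differed most (4.39 on the log2 scale) but overlapped, and Fbn2 was lowest, with a median of 0.148 CPM. In the fibulins and hemicentins, 1 of 7 genes was higher (Efemp2) and 1 lower (Hmcn2, from 26.6 to 159 CPM down to 0.873 to 7.98 CPM). The median of Fbln2 was 848 CPM and that of Hmcn1 1.49 CPM, the ends of this list without correction for length.

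The CCN proteins, small matricellular regulators, had 2 of 5 tested genes higher and none lower. Wisp1 differed most, from 2.43 to 137 CPM up to 141 to 687 CPM, Ctgf was the other, Cyr61 had a median of 427 CPM, and Wisp3 was at 0 in most lines and reached at most 0.380 CPM. The relatives of SPARC went in different directions: Fstl1 was higher (72.0 to 722 against 1054 to 1886 CPM), and Sparcl1 (55.4 to 267 against 2.53 to 16.6 CPM) and Spock2 were lower. Of 6 relatives of thrombospondin and tenascin none was higher and Thbs4, a thrombospondin of muscle and tendon, was lower, with 10.4 to 182 CPM in libraries 1 to 7 against 0.349 to 6.27 CPM. Only Dmp1 of the osteopontin relatives passed the filter, at 1.002 CPM or less. Over these relatives, receptors aside, 9 of 39 tested genes were higher without overlap and 4 lower, against 24.4% and 16.3% of all genes. Of all listed genes, none passed the edgeR test without the mouse term in the uterus or the tumor comparison.

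The genes most like each of 4 matrix genes were sought among 11685 genes with a mean of at least 5 CPM, by the root mean square difference of log2(CPM + 1) over the 11 lines after centering within libraries 1 to 7 and 8 to 11. For Fn1, whose own root mean square was 1.26, these were Igf2bp2 (0.43), Aldh18a1 (0.46) and Gpc6 (0.49). Postn (2.30) was nearest to Epb41l3 (0.90), Thbs2 (1.03) and Col12a1 (1.06). Thbs1 (1.99) was nearest to Lox (0.84), Cnn1 (0.95) and Cdh11 (0.96). For Spp1 (1.98) the nearest genes, Igf2bp3 (1.22), Wnt5a (1.27) and Fibin (1.27), were farther off than the nearest genes of the other 3. The lines share the library split and 4 pairs of mice, so these distances are descriptions.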

How the data were processed

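Bulk RNA of 11 lines was sequenced from poly(A) libraries made with a directional kit. Read pairs were aligned by the authors with STAR (GRCm38), duplicates were removed with SAMtools RmDup, and featureCounts counts were deposited unnormalized as whole numbers per gene. Organs came from sample titles and library numbers from descriptions. Counts were scaled to CPM, and log2 values are log2(CPM + 1). Wilson intervals at 95% cover counting error only. The tests used edgeR 4.0.16 in R 4.3.3 (TMM, filterByExpr, quasi-likelihood), with DESeq2 1.42.0 and limma 3.58.1 as alternatives. Only the coding of the edgeR fit without the mouse term was checked on simulated counts, which held no library number or mouse effect. Its power at the spread of these lines is not reported here. The other alternatives were size factors, filters, the library number term, lines of the same library numbers, muscle genes left out and each line left out. The mouse as a fixed term was added after seeing the data. Positions and lengths came from GENCODE M21 by symbol, which covered 97.7% of the counts. All 10 genes, and the nearest genes of Fn1 and the 3 most variable genes, were named. The highest, lowest and most different genes of a list were named for some lists but not for all. Genes, lists and tests were chosen with earlier results of these data known. Protein sequences and human lines were not analysed here.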

Additional observations from a re-analysis of the deposited data

Results flagged for a closer look

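Among the 7 ovary lines, Eln in F318 LOV lay apart on the log2 scale. Its gap to the nearest ovary line, F339 ROV, was 0.615 of the range of the 7 lines, above Dixon's critical value at 95% for 7 samples. Eln was at 1.004 CPM in F318 LOV, 13.5 CPM in F339 ROV and 16.7 to 49.1 CPM in the 5 other ovary lines. F318 LOV also had the lowest share of muscle counts, 0.166%, whose part in this value was not tested. The highest and the lowest ovary line of each of the 10 genes were examined, and no other lay as far apart. Chance alone gives such a gap in about 1 in 20 groups of independent samples. The ovary lines are not all independent, since mice F364 and F318 each gave a left and a right line. The 7 ovary lines join both sets of libraries, and Eln was low in both uterus lines of libraries 8 to 11 as well, at 0.222 and 1.86 CPM, on either side of F318 LOV.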

How the results depend on the processing

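In the uterus comparison 1 gene was called. The count was 125 with DESeq2, 11 with no filter on low counts, and 0 without the library number term, with limma voom and the mouse as a random block (correlation of lines of the same mouse -0.17), and within libraries 8 to 11. Leaving out 1 line gave 0 to 3 genes, the 3 without F318 LOV. In the tumor comparison 9 genes were called, and the count was 15 with RLE size factors, 14 with library totals, 440 with DESeq2, 79 with no filter, and 0 in the same 3 settings (within libraries 1 to 7). Leaving out 1 line gave 0 to 77 genes, the 77 without F326 ROV and 0 without any other line. Of the 10 matrix genes, 0 were called in either comparison under every setting, including each line left out (0 to 0), except that DESeq2 called 1 in each and the fit with the mouse as a fixed block, chosen after seeing the data, called 2 in the tumor comparison. That block left 1 residual degree of freedom and called 25 genes in the uterus and 132 in the tumor comparison. It turned the uterus fold changes of Postn, Spp1 and Fbn1 to 5.22, 1.67 and 1.35 and, from below to above 0, the tumor fold changes of Spp1 (0.59), Fn1 (1.85), Fbn1 (1.48), Fbln1 (1.24), Tnc (4.62) and Thbs1 (6.79). Without the library number term the uterus fold changes of Fn1, Postn and Fbn1 turned to 0.29, 0.75 and 0.33 on the log2 scale. Eln lay between -5.02 and 0.16 with 1 line left out, turning positive only without F339 ROV. Fbln1 lay between -6.63 (without F319 uterus) and -2.86 (without F333 uterus), and Spp1 between -4.31 and -1.75 by the same lines. Fbn1 lay between -1.40 (without F333 uterus) and -0.25 (without F339 ROV), and Postn between -1.08 (without F333 uterus) and -0.36 (without F318 LOV). In the tumor comparison Spp1 lay between -4.01 and -2.91. The median difference of the 10 genes between the library sets lay between 2.82 and 3.55 with 1 line left out. Only mouse F319 gave both an ovary and a uterus line and only F326 an ovary and a tumor line. Groups of 2 lines limit both comparisons, and the uterus lines cannot be told apart from their library numbers beyond F339 ROV and F318 LOV.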

Other observations

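Among the 39 relatives and 12 receptors of the matrix genes that were tested, 6 had an unadjusted edgeR p under 0.05 in the tumor comparison. Over all genes, 1683 of 17317 had such a p, a similar share, so this count says little about these partners. None of the partners passed the adjustment in the fit without the mouse, and the 6 genes were chosen after their values were seen. Ctgf, a CCN protein induced by mechanical tension, had the smallest unadjusted p of the 6. Its fold change was -3.11 ± 0.53 (SE, log2 scale), with an edgeR adjusted p of 0.0697. With the mouse as a further term, which rests on the pair of F326, it was at -3.52 (edgeR adjusted p = 0.0360). It was not alone in passing there, as Fbln5 (3.34), Ltbp2 (8.65), Thbs4 (-3.002) and Tnxb (-3.10) also passed, with edgeR adjusted p of 0.0360 to 0.0487. Of all genes, 0.762% passed with the mouse term. Without that term Thbs4 and Tnxb were at 0.69 and 0.24, so it turned both, and Fbln5 and Ltbp2 were at 0.53 and 0.25. Cyr61, its close relative, was at -1.35 but turned to 0.35 with the mouse term, Loxl2, a crosslinking enzyme, at -2.51 (edgeR adjusted p = 0.240) and at -1.44 with the mouse term, and Sdc4, a fibronectin coreceptor, at -1.68 (edgeR adjusted p = 0.245). Cd44, a receptor of osteopontin, was at -1.66 (edgeR adjusted p = 0.500) and turned to 0.77 with the mouse term. Nov, another CCN gene, was at 3.005 and so higher in the tumor lines (edgeR adjusted p = 0.500).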
